A study of Mus musculus with 3 samples.

Results

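Lymphocyte fate is set in large part by a small group of transcription factors, and 10 of them were followed here across the lymphocytes of the mouse duodenum: Tbx21, Eomes, Runx3, Zfp683, Ahr, Zbtb16, Ikzf2, Tox, Tcf7 and Lef1. They were chosen by gene symbol, 10 of the 32285 genes in the files, and none of them was used to define a cell type. Their values are unique molecular identifiers (UMIs), the molecule counts of droplet single-cell RNA sequencing, summed over the cells of a type in a library and given per 1000000 UMIs of that type (CPM).

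The gut epithelium holds resident T cells, the intraepithelial lymphocytes. Natural ones carry a gamma-delta receptor, or an alpha-beta receptor with CD8 alpha chains alone, and acquire their program early in life, while induced ones carry CD8 alpha with CD8 beta or derive from CD4 cells after meeting antigen. TCF-1 (from Tcf7) and LEF-1 keep T cells in a naive or stem-like state, and T-bet (from Tbx21), Eomesodermin, RUNX3, Hobit (from Zfp683) and the aryl hydrocarbon receptor (from Ahr) drive or maintain cytotoxic and resident fates. PLZF (from Zbtb16) marks innate-like T cells, Helios (from Ikzf2) marks thymically selected agonist-driven T cells and regulatory T cells, and TOX is needed for thymic CD4 lineage development and sustains chronically stimulated CD8 T cells.

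The libraries came from C57B6/J mice, male by the title of the series, whose duodenal wall had been injected 30 days earlier with saline or with preformed fibrils (PFF) of recombinant mouse alpha-synuclein. Duodenum was digested with Accumax, and cells sorted for CD45 and cells enriched on CD11b beads were mixed before loading, so the mix of cell types was set in part by the enrichment. There were 2 saline samples and 1 PFF sample; the labels put saline 2 in a batch of its own (batch 2) and the other samples in batch 1. How many mice entered each library is not given in the sources used here. P-values between types thus measure how differences between types vary over libraries, which may be technical. Those for PFF, with 1 residual degree of freedom from the saline libraries, rest largely on a spread borrowed across genes.

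Both saline files contained the same 13889 cells under barcode suffixes -1 to -3, and these were counted once as the shared saline wells, beside the unshared well of saline 1 (5631 cells), the unshared well of saline 2 (5734) and PFF 1 (15352). Which saline sample the shared wells came from is not given in the sources used here, so the 4 library units hold 3 samples and may not be independent, and p-values of comparisons between types may be too small.

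After filtering, 31083 cells were kept, with medians of 3217, 10027.5, 5742.5 and 8849 UMIs in saline 1, saline 2, the shared saline wells and PFF 1. The share of deposited cells above 15% mitochondrial UMIs ranged from 3.04% in saline 1 to 22.7% in saline 2, and among the shared wells from 2.61% to 52.2%. Saline 2 and PFF 1 shared 119 cell barcodes, saline 1 and PFF 1 shared 19, and the saline libraries shared 9. Below, values are given in the order saline 1, saline 2, shared saline wells, PFF 1.

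Cell types were read from marker UMIs in each cell. Trdc+ T cells (12150 cells) had a UMI of the delta receptor chain. Cells without it were split into Cd8a+ Cd8b1- T cells (4394), Cd8b1+ T cells with Cd8a (986), Klra6/Klra7+ T cells with Cd8a (673, the Ly49 receptors), Cd4+ T cells (159) and Cd4+ Cd8a+ T cells (76), and B cells numbered 851. Cd4+ and Cd4+ Cd8a+ T cells reached 15 cells only in the shared saline wells and in PFF 1, and of the 986 Cd8b1+ T cells 728 came from the shared saline wells and 33 from saline 2. The Cd8b1+ cells of saline 2 stood apart: they had 236 CPM of Cd8b1 against 701, 709 and 586 CPM in saline 1, the shared saline wells and PFF 1, and 21032 CPM of Gzma, encoding granzyme A, against 5571, 5525 and 6359 CPM.

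For 5 of the 10 genes a RefSeq promoter window was at hand, the 250 bases before an annotated start (build GRCm38.p6). The windows below are shown because these factors bind short core motifs, some of which lie before the genes of the group itself, and capitals mark each match. The searched cores, on both strands, were CTTTGA for TCF/LEF, TGTGGT for RUNX, TCACAC for T-box proteins and GCGTG for the aryl hydrocarbon receptor; none of these contains another.
Runx3, first listed start, chr4:135120395-135120644, + strand: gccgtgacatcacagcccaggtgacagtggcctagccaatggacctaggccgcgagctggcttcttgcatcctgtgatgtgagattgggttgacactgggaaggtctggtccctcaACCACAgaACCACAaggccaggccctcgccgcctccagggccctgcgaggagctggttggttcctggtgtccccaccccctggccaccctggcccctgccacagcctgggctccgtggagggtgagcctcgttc
Lef1, first listed start, chr3:131110047-131110296, + strand: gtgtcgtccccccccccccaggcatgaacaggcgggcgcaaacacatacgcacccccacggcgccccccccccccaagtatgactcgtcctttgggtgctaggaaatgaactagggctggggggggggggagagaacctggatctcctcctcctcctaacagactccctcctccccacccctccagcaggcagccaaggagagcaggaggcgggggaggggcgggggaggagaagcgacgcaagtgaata
Lef1, the fourth listed start, chr3:131156044-131156293, + strand: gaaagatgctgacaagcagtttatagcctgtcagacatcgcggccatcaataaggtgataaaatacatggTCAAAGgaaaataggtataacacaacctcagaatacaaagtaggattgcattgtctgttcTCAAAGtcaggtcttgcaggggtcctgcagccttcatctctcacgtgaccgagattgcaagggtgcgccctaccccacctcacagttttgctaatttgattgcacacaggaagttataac
The Runx3 window held 2 RUNX cores on the opposite strand, their first bases 134 and 126 bases before the start. The window of the fourth Lef1 start held 2 TCF/LEF cores on the opposite strand, 180 and 120 bases before the start, and the first Lef1 window held none of the 4 motifs. Only these 2 of the 10 windows listed for the 5 genes held a match; the second Runx3 window, the Tcf7, Tbx21 and Eomes windows and the other Lef1 windows held none. Among 32817 promoter windows of the same length, 13.8% held the TCF/LEF core, 14.0% the RUNX core, 12.3% the T-box core and 28.1% the aryl hydrocarbon receptor core. A match is a description of the letters, and counts from the 3' end of transcripts do not tell which start a cell used.

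The 10 genes fell into contrasting patterns, shown in the plot of CPM by type and library. Ikzf2, Runx3, Tox, Tbx21 and Ahr were detected in every T cell type, Zbtb16 was absent in Cd4+ T cells and, outside saline 2, low in Cd8b1+ T cells, and Tcf7 and Lef1 were highest in Cd4+ T cells, intermediate in Cd4+ Cd8a+ and Cd8b1+ T cells and, on the whole, low in the Trdc+ and Cd8a+ Cd8b1- cells. Eomes and Zfp683 gave few UMIs in any type.

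**Figure D1:**
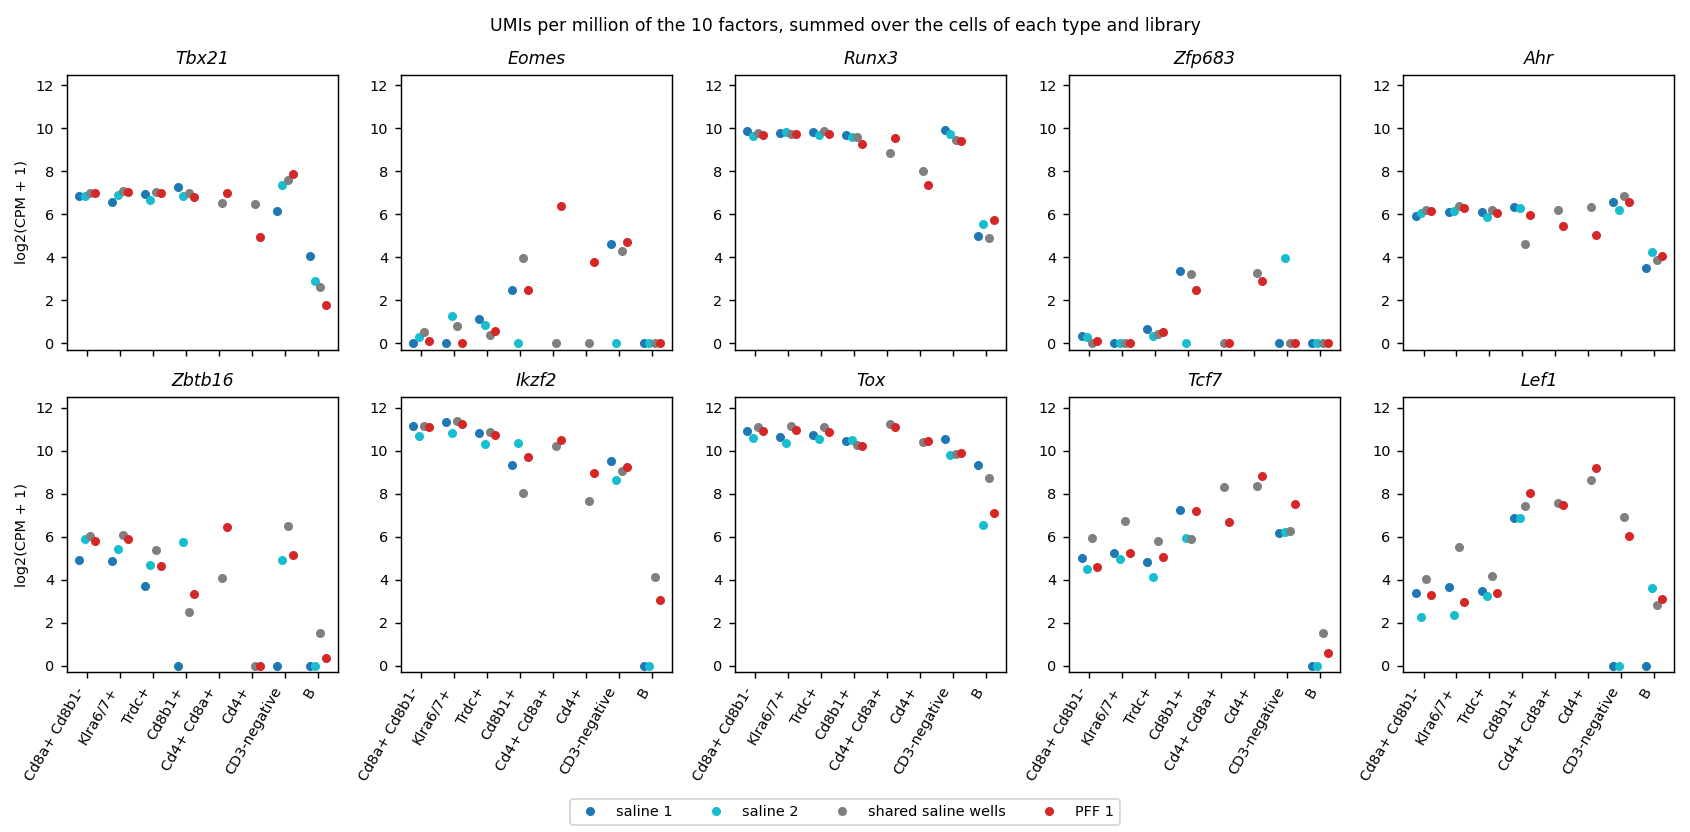
Level of each of the 10 factors on a log2(CPM + 1) axis, 1 panel per gene, with cell types on the horizontal axis and 1 point per library. Ikzf2 lay between 1664 and 2281 CPM in Cd8a+ Cd8b1- T cells and between 264 and 1291 CPM in Cd8b1+ T cells, while Lef1 lay between 3.89 and 15.3 CPM in the former and between 117 and 262 CPM in the latter.

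Trdc+ and Cd8a+ Cd8b1- T cells were each compared with Cd8b1+ T cells, which asks how the natural intraepithelial types differ from the CD8 alpha-beta type; the Cd8b1+ sums serve as the reference in both, so the comparisons are not independent. In each comparison 2 of the 10 factors were higher (Zbtb16 and Ikzf2) and 4 were lower (Eomes, Zfp683, Tcf7 and Lef1) in the natural type, by edgeR's quasi-likelihood test with Benjamini-Hochberg adjustment. Of all 11892 genes tested, 14.4% passed for Trdc+ T cells (6.72% higher and 7.66% lower) and 17.5% for Cd8a+ Cd8b1- T cells (8.28% higher and 9.21% lower). The median log2 fold change of the 10 factors was 0.07 in both comparisons, beside -0.00 over all genes tested.

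Ikzf2 (ENSMUSG00000025997, chromosome 1, 69531214 to 69687245, minus strand in GRCm38) encodes Helios. It had 1812, 1282, 1860 and 1722 CPM in Trdc+ T cells and 2281, 1664, 2281 and 2196 CPM in Cd8a+ Cd8b1- T cells. In Cd8b1+ T cells it had 635, 1291, 264 and 822 CPM. Every library was lower in Cd8b1+ than in Cd8a+ Cd8b1- T cells, but in saline 2 the Cd8b1+ value slightly exceeded that of Trdc+ T cells. The log2 fold change over Cd8b1+ T cells was 1.51 ± 0.32 (SE; adjusted p = 0.00126, edgeR) in Cd8a+ Cd8b1- T cells and 1.16 ± 0.32 (adjusted p = 0.0136) in Trdc+ T cells. The Trdc+ call was lost without saline 1 (1.05, adjusted p = 0.131, edgeR), without PFF 1 (1.20, adjusted p = 0.071) and without the shared saline wells (0.77, adjusted p = 0.0633), and under DESeq2 (1.10, adjusted p = 0.0535).

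A stricter gate that asked for 2 UMIs of each positive marker lowered Ikzf2 in Cd8b1+ T cells to 150, 1001, 137 and 345 CPM. Under that gate Cd8b1+ T cells no longer reached 15 cells in each of saline 1, saline 2 and PFF 1. Fits with that gate thus used fewer Cd8b1+ libraries. At an equal depth of 2000 UMIs per cell, an Ikzf2 UMI was found in 95.3%, 84.4%, 93.7% and 94.5% of Cd8a+ Cd8b1- T cells and in 34.5%, 65.6%, 18.8% and 42.2% of Cd8b1+ T cells. The share was at most 4.07% in B cells and at most 2.5% in epithelial cells, the types used here as the background of free RNA. Before thinning the shares were 97.3%, 97.2%, 97.5% and 99.1% and 37.7%, 87.9%, 32.0% and 57.7%, and 99 Cd8a+ Cd8b1-, 20 Cd8b1+, 28 B and 235 epithelial cells under that depth were left out. In this readout most Cd8a+ Cd8b1- T cells and, outside saline 2, a minority of Cd8b1+ T cells had, at equal depth, an Ikzf2 UMI, as the plot of equal-depth shares shows. Of the 12 Foxp3+ Cd4+ cells, too few to test, 9 had an Ikzf2 UMI, and their pooled level was 2364 CPM.

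**Figure D2:**
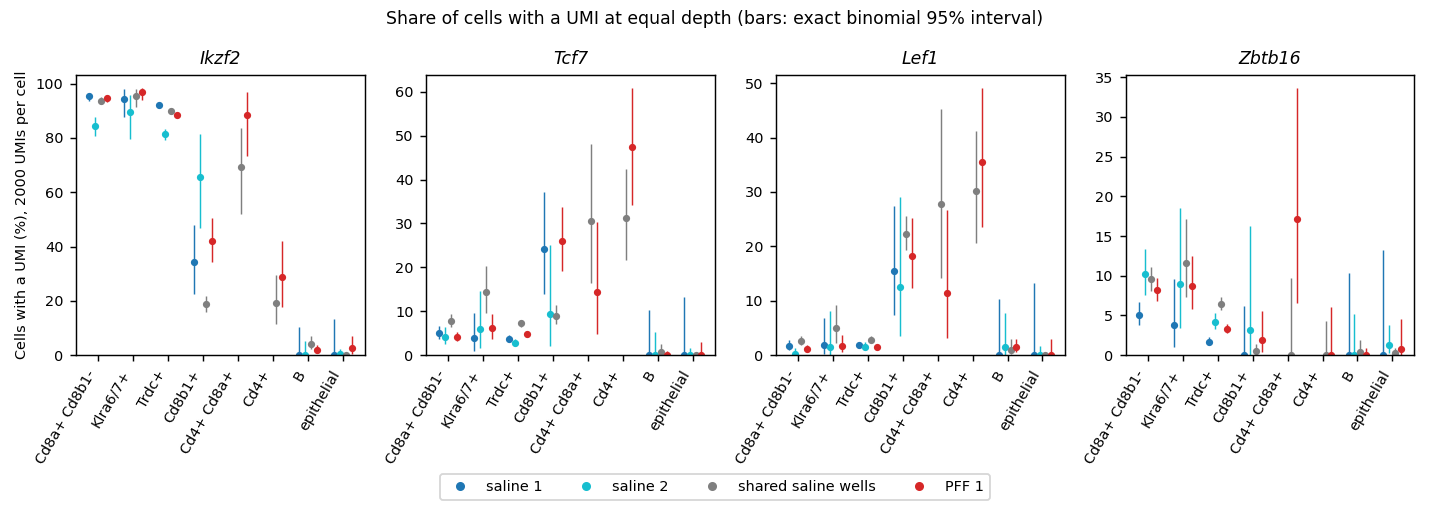
Share of cells with a UMI after thinning each cell to 2000 UMIs, by cell type, with 1 point per library and exact binomial 95% intervals that cover counting error only. Ikzf2 was found in 84.4% to 95.3% of Cd8a+ Cd8b1- T cells and in 18.8% to 65.6% of Cd8b1+ T cells, and epithelial cells serve as the background.

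Zbtb16 (ENSMUSG00000066687, chromosome 9, 48654297 to 48836222, minus strand) encodes PLZF. It had 29.2, 57.7, 64.7 and 54 CPM in Cd8a+ Cd8b1- T cells and 12.3, 24.4, 40.3 and 24.2 CPM in Trdc+ T cells. In Cd8b1+ T cells it had 0, 52.5, 4.57 and 9.01 CPM, so only saline 2 was near the level of Cd8a+ Cd8b1- T cells. The log2 fold change over Cd8b1+ T cells was 2.52 ± 0.43 (SE; adjusted p = 0.000119, edgeR) in Cd8a+ Cd8b1- T cells and 1.46 ± 0.44 (adjusted p = 0.0245) in Trdc+ T cells. The Trdc+ call was lost without saline 1 (1.40, adjusted p = 0.107, edgeR), without PFF 1 (1.54, adjusted p = 0.0844) and without the shared saline wells (0.33, adjusted p = 0.742), and under DESeq2 (0.93, adjusted p = 0.363).

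Zbtb16 was higher in Cd8a+ Cd8b1- than in Trdc+ T cells in each of the 4 library units, a difference that was not tested. Within Trdc+ T cells, the 296 cells that also had a Klra6 or Klra7 UMI held 53.5 CPM of Zbtb16 and the other 11854 cells 26.1 CPM, a split made after the values had been seen. It was higher with the receptor in every library, by the least in saline 1 (15.6 against 12.2 CPM). At equal depth a Zbtb16 UMI was found in 5.09%, 10.2%, 9.53% and 8.20% of Cd8a+ Cd8b1- T cells and in 0% to 1.33% of epithelial cells.

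Lef1 (ENSMUSG00000027985, chromosome 3, 131110471 to 131224356, plus strand) encodes the partner of TCF-1. It had 117, 117, 171 and 262 CPM in Cd8b1+ T cells, although 30 of the 49 UMIs of saline 2 lay in a single cell. In Trdc+ T cells it had 10.1, 8.33, 16.8 and 9.60 CPM, and in Cd8a+ Cd8b1- T cells 9.48, 3.89, 15.3 and 8.88 CPM. No library overlapped: the lowest Cd8b1+ value was above every value of the natural types. The log2 fold change from Cd8b1+ T cells was -3.99 ± 0.31 (SE; adjusted p = 1.76e-10, edgeR) in Trdc+ T cells and -4.25 ± 0.32 (adjusted p = 1.55e-10) in Cd8a+ Cd8b1- T cells, and both calls held under all 15 alternatives.

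Tcf7 (ENSMUSG00000000782, chromosome 11, 52252371 to 52283014, minus strand) encodes TCF-1. It had 149, 59.7, 57.9 and 148 CPM in Cd8b1+ T cells, with saline 1 and PFF 1 higher than the other libraries. It had 27.3, 16.5, 55.5 and 32.0 CPM in Trdc+ T cells and 31.7, 21.6, 61.3 and 23.1 CPM in Cd8a+ Cd8b1- T cells, so in the shared saline wells the types lay close together. The log2 fold change was -1.64 ± 0.32 (SE; adjusted p = 0.000574, edgeR) in Trdc+ T cells and -1.56 ± 0.33 (adjusted p = 0.00122) in Cd8a+ Cd8b1- T cells. Without PFF 1 the latter was -0.84 (adjusted p = 0.129, edgeR).

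The shared saline wells gave the highest Tcf7 and Lef1 values of all libraries in Trdc+, Cd8a+ Cd8b1- and Klra6/Klra7+ T cells. In Klra6/Klra7+ T cells Tcf7 had 37.4, 30.6, 105 and 36.6 CPM and Lef1 11.7, 4.17, 44.3 and 6.75 CPM. Cd8b1 was also highest there, with 36.5 CPM against 7.0, 8.34 and 2.89 CPM in the Klra6/Klra7+ T cells of saline 1, saline 2 and PFF 1, and its part in the Tcf7 and Lef1 values was not tested. Within the Cd8b1+ T cells of PFF 1, thinned to equal depth, a Tcf7 UMI was found in 60.7% of the 28 cells with a Lef1 UMI and in 18.3% of the others. In the shared saline wells it was found in 11.8% of 161 cells with a Lef1 UMI and in 8.20% of the others, so Tcf7 and Lef1 went together in PFF 1 more than in the shared saline wells; that difference was not tested. Ikzf2 went the other way in both, found in 14.3% of Lef1+ against 48.4% of the other cells in PFF 1 and in 12.4% against 20.7% in the shared saline wells.

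Eomes (ENSMUSG00000032446, chromosome 9, 118478212 to 118486132, plus strand) encodes a T-box factor of memory CD8 T cells and natural killer cells. Only 74 UMIs lay in Cd8b1+ T cells (4.67, 0, 14.6 and 4.51 CPM, from 1, 0, 67 and 6 UMIs), 6 in Cd8a+ Cd8b1- T cells and 49 in the much larger Trdc+ gate. The shared saline wells carried most of the Cd8b1+ signal, and saline 2 had none. The log2 fold change was -5.40 ± 0.96 (SE; adjusted p = 0.000229, edgeR) in Cd8a+ Cd8b1- T cells and -3.89 ± 0.82 (adjusted p = 0.00164) in Trdc+ T cells. The Trdc+ call was lost without the shared saline wells (-2.36, adjusted p = 0.163, edgeR) and under DESeq2 (-3.29, adjusted p = 0.0916). At its level in the natural types Eomes could pass the low-count filter only through other types, where it was higher, which limits both calls.

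Zfp683 (ENSMUSG00000049410, chromosome 4, 134053838 to 134058996, plus strand) encodes Hobit, a factor of resident lymphocytes in mice. It had 9.34, 0, 8.27 and 4.51 CPM in Cd8b1+ T cells (2, 0, 38 and 6 UMIs). Cd8a+ Cd8b1- T cells held 3 UMIs in all, Trdc+ T cells 35 and Klra6/Klra7+ T cells 0. Levels were low everywhere and lower in the natural types than in Cd8b1+ T cells, with log2 fold changes of -5.61 ± 0.75 (SE; adjusted p = 2.94e-05, edgeR) in Cd8a+ Cd8b1- and -3.82 ± 0.59 (adjusted p = 0.000158) in Trdc+ T cells. Both Zfp683 calls held under the 11 of 15 alternatives in which the gene had a fitted value, and the rest could not test them. At its level in the natural types Zfp683 could pass the low-count filter only through other types, where it was higher. Its calls and their stability are therefore no separate support for a difference.

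Tbx21, Runx3, Ahr and Tox did not pass in either comparison. Runx3 (ENSMUSG00000070691, chromosome 4, 135120652 to 135177990, plus strand), which represses Cd4 and supports CD8 fate, had 922, 829, 926 and 846 CPM in Trdc+ T cells, 945, 805, 894 and 815 CPM in Cd8a+ Cd8b1- T cells and 822, 778, 761 and 620 CPM in Cd8b1+ T cells. Its log2 differences from Cd8b1+ T cells were 0.20 ± 0.16 and 0.19 ± 0.16 (SE; adjusted p = 0.502 for both, edgeR), with Cd8b1+ T cells lowest in every library. Tbx21 (ENSMUSG00000001444, chromosome 11, 97098071 to 97115331, minus strand), the type 1 effector factor, had 154, 115, 127 and 110 CPM in Cd8b1+ T cells and 113, 113, 128 and 128 CPM in Cd8a+ Cd8b1- T cells. The Tbx21 ranges overlapped, with a log2 difference of -0.05 ± 0.17 (SE; adjusted p = 0.923, edgeR).

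Ahr (ENSMUSG00000019256, chromosome 12, 35497974 to 35535038, minus strand), a ligand-activated factor that intraepithelial lymphocytes need for their upkeep, had 60.4, 64.8, 73.7 and 70.4 CPM in Cd8a+ Cd8b1- T cells. In Cd8b1+ T cells it had 79.4, 76.4, 23.9 and 62.3 CPM, low in the shared saline wells alone. The log2 difference of Cd8a+ Cd8b1- T cells was 0.46 ± 0.24 (SE; adjusted p = 0.201, edgeR) and turned to -0.05 without the shared saline wells (adjusted p = 0.968). Tox (ENSMUSG00000041272, chromosome 4, 6686353 to 6991557, minus strand) had 1905, 1544, 2221 and 1959 CPM in Cd8a+ Cd8b1- T cells and 1420, 1444, 1221 and 1188 CPM in Cd8b1+ T cells. Tox was lower in Cd8b1+ T cells in every library, but its log2 difference of 0.48 ± 0.27 did not pass (SE; adjusted p = 0.258, edgeR). With the stricter gate both passed in Cd8a+ Cd8b1- T cells, Ahr with 1.01 (adjusted p = 0.00249, edgeR) and Tox with 0.98 (adjusted p = 0.0164). That gate also left fewer Cd8b1+ libraries, so the libraries changed with the gate.

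**Figure D3:**
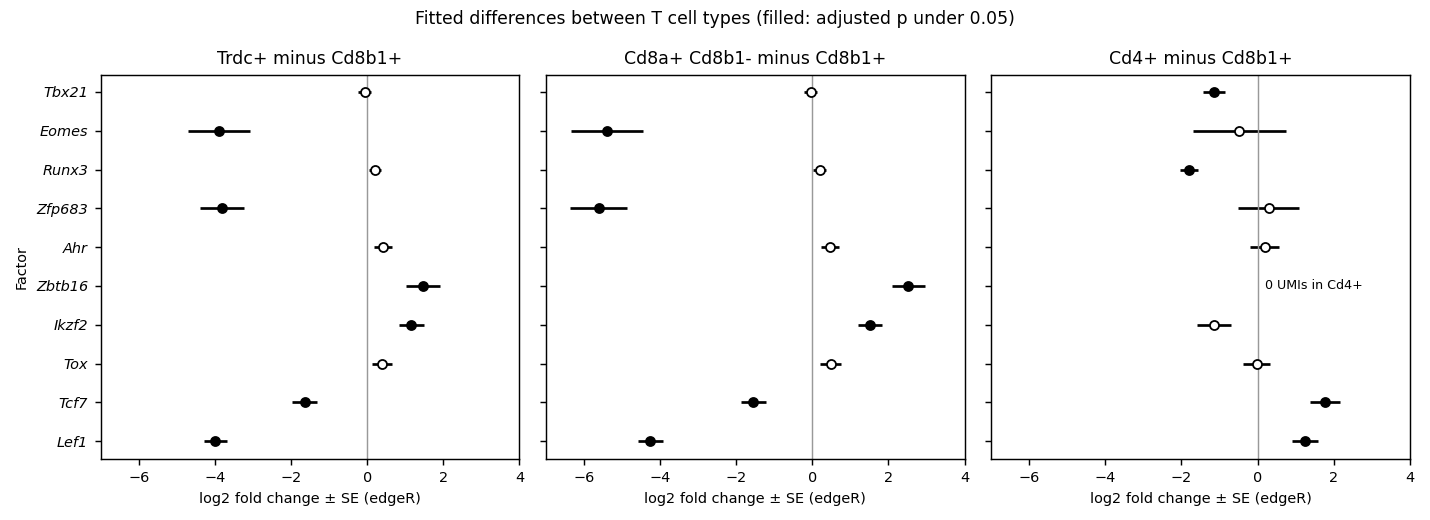
Fitted log2 fold changes with standard errors for the 10 factors in Trdc+, Cd8a+ Cd8b1- and Cd4+ T cells, each compared with Cd8b1+ T cells. Filled symbols mark an adjusted p under 0.05. Zbtb16, with no UMI in Cd4+ T cells, has no symbol in that panel. Lef1 was at -3.99 and -4.25 in the comparisons of Trdc+ and Cd8a+ Cd8b1- with Cd8b1+ T cells and at 1.24 in that of Cd4+ with Cd8b1+ T cells.

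Markers of epithelial cells, the neighbours of intraepithelial lymphocytes, were summed over 8 genes. Their level was 160 to 329 CPM in Trdc+ T cells, 170 to 330 CPM in Cd8a+ Cd8b1- T cells and 66.6 to 294 CPM in Cd8b1+ T cells, with 8 of 8 markers detected in every library of Trdc+ T cells. Epithelial cells themselves held 0.870 CPM of Runx3, 2.01 CPM of Ikzf2, 2.61 CPM of Zbtb16, 20.8 CPM of Ahr and 92.4 CPM of Tox, so none of these had a higher level in epithelial cells than in Cd8a+ Cd8b1- T cells. Lef1 and Tcf7 held 2 and 15 UMIs in all 1431 epithelial cells.

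Genes of the surrounding programs were read from 8 lists. All 15 naive and recirculation genes tested were lower in Trdc+ and in Cd8a+ Cd8b1- than in Cd8b1+ T cells, with median log2 fold changes of -3.87 and -5.00 beside -0.00 over all genes in both. Among them Ccr7, the lymph node homing receptor, was at 0, 26.3, 0.653 and 24.8 CPM in Cd8b1+ T cells, and its log2 fold change in Trdc+ T cells was -5.69 ± 0.73 (SE; adjusted p = 4.53e-06, edgeR). Its level in Cd8b1+ T cells thus differed widely between libraries. Of 12 genes listed as targets of the aryl hydrocarbon receptor, 5 were tested and 4 were higher in each natural type, with medians of 1.03 in Trdc+ and 1.18 in Cd8a+ Cd8b1- T cells. Ahrr, the repressor induced by the receptor, had 72.6, 80.8, 60.9 and 102 CPM in Cd8a+ Cd8b1- and 60.7, 88.3, 7.84 and 48.8 CPM in Cd8b1+ T cells, so the shared saline wells were low in Ahrr as in Ahr.

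The innate-like list, fixed around the program PLZF is known for, did not follow Zbtb16. In Trdc+ T cells 2 of 14 tested genes were higher and 8 lower than in Cd8b1+ T cells, with a median of -1.58, and in Cd8a+ Cd8b1- T cells 3 were higher and 8 lower, with a median of -2.25. The signalling genes Icos (-5.20 ± 0.36), Sh2d1a (-4.63 ± 0.27) and Slamf6 (-4.58 ± 0.35) had the largest log2 fold changes (SE) of that list in Trdc+ T cells. The effector list split with 5 higher and 3 lower of 16, the residency list with 3 and 2 of 15, the inhibitory receptors with 3 and 3 of 10 and the other lineage factors with 3 and 6 of 29 in Trdc+ T cells. None of 9 tested dissociation genes, which report stress during digestion, passed in either comparison.

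Klra6/Klra7+ T cells were compared with the mean of Cd8a+ Cd8b1- and Cd8b1+ T cells. None of the 10 factors passed, beside 0.513% of all genes, with unadjusted p under 0.05 for 4 of the 10 and for 9.70% of all genes. Zbtb16 had 28.0, 41.7, 66.0 and 58.2 CPM and Ikzf2 2545, 1839, 2676 and 2454 CPM in these cells. Their log2 differences were 1.21 ± 0.33 (SE; adjusted p = 0.107, edgeR) and 0.94 ± 0.26 (adjusted p = 0.122), and that of Lef1 was -1.42 ± 0.37 (adjusted p = 0.081). Tbx21 differed by -0.01 ± 0.15, Runx3 by 0.10 ± 0.14, Ahr by 0.39 ± 0.20, Tox by 0.16 ± 0.23, Tcf7 by -0.18 ± 0.31 and Eomes, with 2 UMIs, by -1.88 ± 1.61 (log2 difference and SE), and Zfp683 had no UMI. Beside Cd8a+ Cd8b1- T cells alone the pooled levels lay close, with 55.5 against 54.7 CPM for Zbtb16, 853 against 853 CPM for Runx3 and 2433 against 2150 CPM for Ikzf2, a comparison that was not tested. In the stricter gate, which left fewer Cd8b1+ libraries, Ikzf2, Zbtb16 and Lef1 passed. There Ikzf2 differed by 1.88 (adjusted p = 6.56e-07, edgeR), Zbtb16 by 2.79 (adjusted p = 1.03e-07) and Lef1 by -1.66 (adjusted p = 0.0138). Without saline 2, Zbtb16 (1.71, adjusted p = 0.0014, edgeR) and Ikzf2 (1.19, adjusted p = 0.00878) passed, and without the shared saline wells Lef1 did (-2.59, adjusted p = 0.00014).

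Cd4+ T cells carried the most Tcf7 and Lef1 and the least Runx3 of the T cell types. Against Cd8b1+ T cells 2 of the 10 factors were higher and 2 lower, beside 4.25% of all genes (2.23% higher and 2.03% lower). Tcf7 had 329 CPM in the shared saline wells and 449 CPM in PFF 1, a log2 fold change of 1.77 ± 0.38 (SE; adjusted p = 0.0047, edgeR). Lef1 had 399 and 594 CPM, a log2 fold change of 1.24 ± 0.34 (SE; adjusted p = 0.0313, edgeR). Runx3 had 259 and 166 CPM and fell by 1.80 on the log2 scale (SE 0.24; adjusted p = 1.3e-05, edgeR), the call of the 4 that held under all 15 alternatives. Tbx21 had 87.7 and 30.2 CPM and fell by 1.13 on the log2 scale (SE 0.29; adjusted p = 0.0186, edgeR).

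Without PFF 1 the Cd4+ values rest on the shared saline wells, and Tcf7 (1.70, adjusted p = 0.0924, edgeR), Lef1 (0.98, adjusted p = 0.344) and Tbx21 (-0.65, adjusted p = 0.463) no longer passed. Without saline 1 Lef1 was at 1.19 (adjusted p = 0.139, edgeR), under DESeq2 at 1.30 (adjusted p = 0.237) and with the stricter gate at 0.40 (adjusted p = 0.781). Tbx21 with the stricter gate was at -0.81 (adjusted p = 0.274, edgeR). Of the factors not called, Ahr differed by 0.19 ± 0.38, Tox by -0.02 ± 0.35, Eomes by -0.48 ± 1.22 and Zfp683 by 0.29 ± 0.80 (log2 difference and SE). Zbtb16 had no UMI in any of the 159 Cd4+ T cells, which allows up to 2.92 CPM for counting error only, and pooled Cd8a+ Cd8b1- T cells were at least 18.7-fold higher. Ikzf2 had 199 and 501 CPM, and its log2 difference from Cd8b1+ T cells was -1.15 ± 0.44 (SE; adjusted p = 0.183, edgeR). At equal depth a Tcf7 UMI was found in 31.3% and 47.5% of Cd4+ T cells and a Lef1 UMI in 30.1% and 35.6%, beside 0% for both in epithelial cells.

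The lists placed Cd4+ T cells apart from Cd8b1+ T cells in several ways. Of the effector genes 9 of 16 were lower and 1 higher (median log2 fold change -1.77, beside -0.05 over all genes), led among those with UMIs in both types by Ccl4 (-5.35 ± 0.74 SE) and Gzma (-3.62 ± 0.49 SE). Of the residency genes 9 of 15 were lower (median -1.38), and of the innate-like genes 9 of 14 were higher and 2 lower (median 1.98), among them Maf (5.85 ± 0.42 SE) and Il4 (5.37 ± 0.76 SE). Of the naive genes 2 of 15 were higher, Myb (2.89 ± 0.61 SE) and Slamf6 (2.09 ± 0.36 SE).

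Cd4+ T cells with Cd8a UMIs, the markers that CD4 intraepithelial cells carry, were compared with those without. Of the 10 factors 3 were higher and none was lower, beside 2.65% of all genes (2.1% higher and 0.547% lower). Runx3 had 456 CPM in the shared saline wells and 743 CPM in PFF 1 against 259 and 166 CPM in Cd4+ T cells, a log2 fold change of 1.46 ± 0.26 (SE; adjusted p = 0.00114, edgeR). Ikzf2 had 1188 and 1443 CPM against 199 and 501 CPM, a log2 fold change of 1.90 ± 0.48 (SE; adjusted p = 0.0255, edgeR). Zbtb16 had 16 and 86.8 CPM against none, at least 19.6-fold higher over the pooled libraries (adjusted p = 0.0188, edgeR). Each Cd4+ Cd8a+ value of these 3 genes was above each Cd4+ value. These genes had been called on the same sums, and the share of all genes separated in this way was not counted. In the shared saline wells and PFF 1, Cd4+ Cd8a+ T cells had medians of 6444.5 and 8590 UMIs. Medians were 4947 and 7496 UMIs in Cd4+ and 5607 and 8513.5 UMIs in Cd8a+ Cd8b1- T cells. Whether doublets of Cd4+ and Cd8a+ cells or free Cd8a RNA entered this gate was not tested.

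Lef1 had 188 and 176 CPM in Cd4+ Cd8a+ T cells against 399 and 594 CPM, a log2 fold change of -1.51 ± 0.42 at the threshold (SE; adjusted p = 0.05, edgeR), which passed under 10 of 15 alternatives. Tcf7 had 312 and 103 CPM, a log2 difference of -1.13 ± 0.46 (SE; adjusted p = 0.222, edgeR). Tbx21 differed by 0.90 ± 0.35, Tox by 0.68 ± 0.39 and Ahr by -0.05 ± 0.49 (log2 difference and SE, not called), and Zfp683 had 0 UMIs against 8 in Cd4+ T cells. All 31 Eomes UMIs of this gate lay in 1 cell of PFF 1. Without PFF 1 none of the 3 calls held: Runx3 was at 0.77 (adjusted p = 0.526, edgeR), Ikzf2 at 2.53 (adjusted p = 0.39) and Zbtb16 had an adjusted p of 0.74. Without saline 1 Ikzf2 (1.90, adjusted p = 0.0793, edgeR) and Zbtb16 (adjusted p = 0.069) were lost, and without the shared saline wells Ikzf2 (1.47, adjusted p = 0.0659).

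With Runx3, 9 of 16 effector genes, 6 of 15 residency genes and 3 of 5 aryl hydrocarbon receptor targets were higher in Cd4+ Cd8a+ T cells and none of these lists had a lower gene (medians 1.35, 0.83 and 2.34, beside -0.01 over all genes). Gzma differed by 4.60 ± 0.52, Kit by 6.68 ± 1.5 and Lag3 by 2.34 ± 0.45 (log2 fold change and SE, all past the test). The innate-like list was split, with 2 of 14 tested genes higher, 2 lower and a median of -0.61. The signalling adapters Fcer1g (4.87 ± 0.55) and Tyrobp (4.41 ± 0.59), both on that list, were higher. Epithelial markers summed to 108 and 163 CPM in Cd4+ Cd8a+ T cells and to 59.2 and 23.7 CPM in Cd4+ T cells, so they moved with these results. Myeloid markers summed to 32.0 and 67.8 CPM against 11 and 6.48 CPM, and mast cell markers to 56.0 and 182 CPM against 6.57 and 23.7 CPM. Kit itself, which is in the mast list, gave 56.0 and 168 CPM of the mast sum in Cd4+ Cd8a+ T cells, and Mcpt1, Mcpt2 and Cpa3 were at 0 there in the shared saline wells. Kit, Fcer1g and Tyrobp are also expressed by mast or myeloid cells, and the part of these cells in the results was not tested.

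The gate for CD3-negative lymphocytes held 78 cells, but 42 of them had a Siglech UMI and 7 a Cpa3 UMI, markers of plasmacytoid dendritic and mast cells, and 4 a UMI of Ncr1 or Klrb1c, markers of natural killer and related cells. The label therefore did not match most of these cells. Against Trdc+ T cells 4 of the 10 factors were lower in this mixed gate, Tbx21 (-2.51 ± 0.44), Runx3 (-1.41 ± 0.21), Ikzf2 (-2.04 ± 0.40) and Tox (-3.36 ± 0.40, log2 fold change and SE), beside 23.7% of all genes. A gate added after the data were seen left out cells with Siglech or Cpa3 and changed other limits. It asked for 2000 UMIs per cell and 2 UMIs from a shorter innate gene list. Unlike the first gate, it did not exclude UMIs of the T cell receptor beta chain (Trbc1 and Trbc2). It held 86 cells, 13 of them also in the first gate, so it was a largely different set of cells. Of the 86, 57 had Ncr1 or Klrb1c, both among the genes that admit a cell, so that share is partly set by the gate.

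In the added gate Tbx21 had 71.2, 161, 195 and 235 CPM, against 124, 101, 129 and 128 CPM in Trdc+ T cells, and the ranges overlapped. Runx3 had 973, 865, 693 and 679 CPM and Ahr 94.9, 73.3, 113 and 94.9 CPM. Of the 10 factors 1 passed, Lef1, with 0, 0, 120 and 64.9 CPM and a log2 fold change of 2.62 (adjusted p = 0.0382, edgeR), beside 1.8% of all 11397 genes tested. Ikzf2 differed by -1.64 (adjusted p = 0.0528, edgeR) and Eomes, with 9 UMIs, by 5.09 (adjusted p = 0.0933). In the innate-like list 8 of 14 tested genes were higher and 0 lower (median 2.73, beside -0.09 over all genes). The cytokine receptor genes Il18r1 (6.87 ± 0.62) and Il23r (6.20 ± 1.04, log2 fold change and SE) were among the higher ones. Of the naive and recirculation genes 5 of 15 were higher and 0 lower (median 2.67). The shared saline wells and PFF 1 were the only units with 15 cells of this gate.

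B cells had little of most of the factors. Against Cd4+ T cells 9 of the 10 were lower, beside 14.4% of all genes lower and 12.7% higher, and the remaining gene, Zbtb16, had no UMI in Cd4+ T cells and 5 in B cells. Tcf7 had 0, 0, 1.84 and 0.533 CPM in B cells and Lef1 0, 11.4, 5.98 and 7.73 CPM, log2 fold changes of -8.55 ± 0.65 and -5.87 ± 0.45 (SE). The log2 fold change was -5.07 for Ikzf2, -3.66 for Tbx21, -2.24 for Runx3, -2.18 for Tox and -1.77 for Ahr. Eomes and Zfp683 had no UMI in 851 B cells, and pooled Cd4+ T cells were at least 13.1-fold and at least 17.5-fold higher, from 6 and 8 UMIs, the Eomes ones in 1 cell. Tox was the exception in level: it had 646, 92.6, 421 and 136 CPM in B cells, with saline 1 and the shared saline wells high and 33 of the 57 UMIs of saline 2 in a single cell. At equal depth a Tox UMI was found in 29.4%, 1.45%, 25.4% and 6.59% of B cells and in 5.46% to 14.6% of epithelial cells, so the B cell share in saline 2 lay below that background and in PFF 1 within it. Ahr lost its call without the shared saline wells (-0.86, adjusted p = 0.228, edgeR), and Eomes without saline 1 (adjusted p = 0.0708) and without PFF 1.

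Whether PFF moved these factors was tested within each type on 3 libraries, the unshared saline wells and PFF 1, with 1 PFF library that is assumed to vary like the saline ones. Of 35 tests on the factors over 5 types, none passed by edgeR, 5 had an unadjusted p under 0.05 (3.80% of all tests of genes over the 5 types had one), and under DESeq2 none passed and none had one. Of all genes 0.18% passed in Cd8b1+, 0.0169% in Cd8a+ Cd8b1-, 0.139% in Klra6/Klra7+, 0.164% in Trdc+ T cells and 0.0631% in B cells. The median absolute log2 difference of the 35 was 0.20. In Cd8a+ Cd8b1- and in Trdc+ T cells no factor lay on the same side of all 3 saline units, and over all types 6 of 35 did. The share of all genes that did so was not counted, so these counts are descriptions only. The difference between types in the PFF response passed for 2 of 11873 genes and for none of the factors.

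Lef1 in Cd8b1+ T cells was the factor with the lowest p. It had 262 CPM in PFF 1 against 117 and 117 CPM in the saline libraries, a log2 difference of 1.23 ± 0.38 (SE; unadjusted p = 0.00108, adjusted p = 0.299, edgeR). PFF 1 was above saline 1 by 1.32, within the same batch, above saline 2 by 1.24 and above the shared saline wells by 0.49. Tcf7 in these cells differed by 0.66 ± 0.40 (SE; adjusted p = 1.000, edgeR), by 0.15 from saline 1 and 1.37 from saline 2. Of the list genes in Cd8b1+ T cells 1 was called, Klf2, a factor of recirculating T cells, with 62.3 CPM in PFF 1 against 4.67 and 9.55 CPM in the saline libraries and 11.5 CPM in the shared saline wells. Its log2 fold change of 3.03 ± 0.71 (SE; adjusted p = 0.0153, edgeR) compares 1 PFF library, with an assumed spread, and no gene was called in these cells under DESeq2 or with the shared saline wells as a further saline library (20 and 77 genes had an unadjusted p under 0.05), so the call was lost in both. These Cd8b1+ sums hold 69, 33 and 156 cells, and the Klf2 counts were 1, 4 and 83 UMIs. The naive list had a median of 0.83 in Cd8b1+ T cells, 0.26 in Cd8a+ Cd8b1- and -0.10 in Klra6/Klra7+ T cells. It was 0.56 in Trdc+ T cells and 0.32 in B cells, and these medians were not tested. In Klra6/Klra7+ T cells 1 of 4 tested dissociation genes was called higher, so handling may differ between these libraries, which was not tested. Over the 5 types 55 genes passed in all, and 4 did under DESeq2 and 2 with the shared saline wells as a further saline library.

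**Figure D4:**
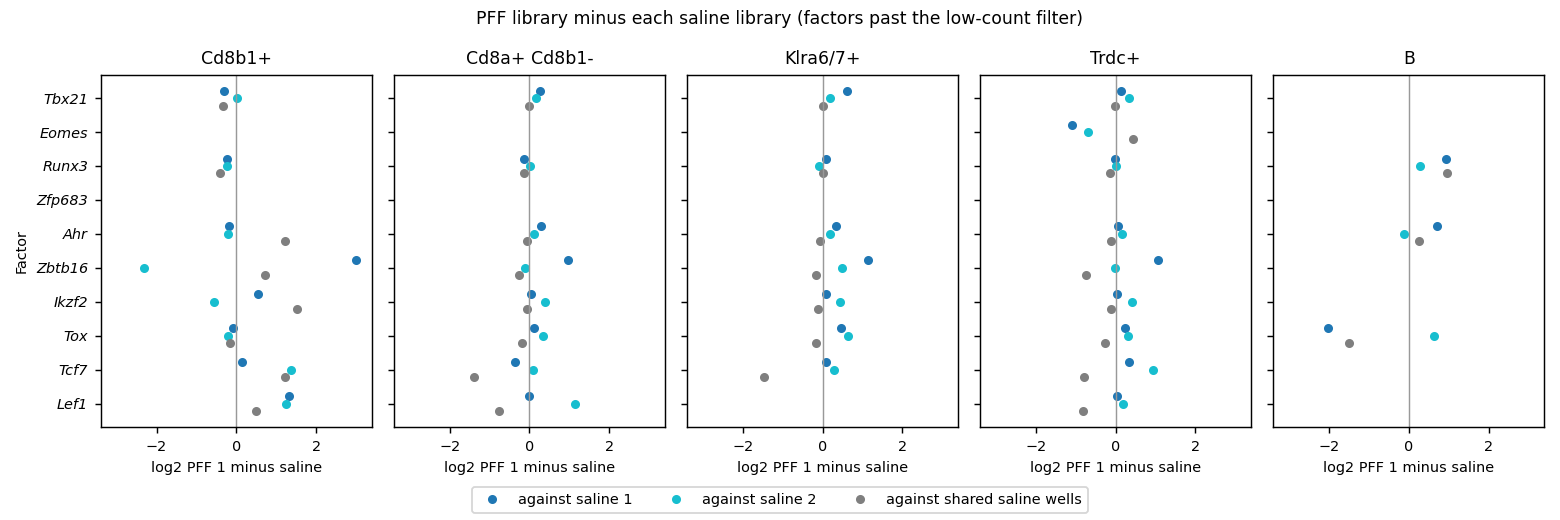
Log2 difference of PFF 1 from each saline unit for the factors past the low-count filter, 1 panel per cell type and 1 point per saline unit. Lef1 in Cd8b1+ T cells was above the 3 saline units by 1.32, 1.24 and 0.49, and in Trdc+ and Cd8a+ Cd8b1- T cells no factor lay on the same side of all 3. The share of all genes that did so was not counted.

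For each factor the genes with the most similar levels were found by Pearson correlation of log2(CPM + 1) over 27 sums of type and library, among 9298 genes. The sums share libraries and depth, so the values are descriptions. Ikzf2 was most like Chn2 (r = 0.983), Txk (0.975) and Itgae (0.970), the last encoding the integrin that binds epithelial E-cadherin. Runx3 was most like Gm10874 (0.977), Ctsw (0.976) and 1810006J02Rik (0.973), and Tbx21 most like Rab8b (0.966), Ptger4 (0.965) and Pik3cd (0.959). Lef1 was most like Sh2d1a (0.917), Cd6 (0.915) and Pde11a (0.903), and Tcf7 most like Bicdl1 (0.942), Actn1 (0.925) and Nsg2 (0.924). Zbtb16 was most like Sulf2 (0.932), Pde4a (0.927) and Igsf5 (0.923), Tox most like Agfg1 (0.937), Gramd1a (0.937) and Pitpnc1 (0.929), and Ahr most like Bmpr2 (0.920), Ctif (0.905) and Il12rb2 (0.902). The closest genes to the sparse factors had lower values, Dapl1 (0.698), Smpdl3b (0.684) and Ctla2a (0.682) for Eomes and Gm39323 (0.870), Gm30373 (0.843) and Ptpn18 (0.812) for Zfp683.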

How the data were processed

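The authors deposited raw UMI counts per gene and cell for 3 droplet libraries (10x 3' v3, per the labels' protocols), made with Cell Ranger 7.0.0 against mm10 per the submitters' processing notes and the file headers. A cell entered with 500 or more UMIs, 200 or more genes and no more than 15% mitochondrial UMIs; the highest Scrublet scores (scanpy 1.11.5) were removed at 0.8% per 1000 cells in each well, since the automatic threshold marked few cells. Types were gated on marker UMIs (T cells: at least 2 UMIs of Cd3d, Cd3e and Cd3g), raw counts were summed per type and library unit with at least 15 cells, and compared by the 2-sided quasi-likelihood test of edgeR (version 4.0.16, under R version 4.3.3), with TMM scaling, filterByExpr and Benjamini-Hochberg adjustment over all genes. Type comparisons carried the library as a block, since every type comes from the same libraries; the PFF fit had 1 residual degree of freedom. A call is an adjusted p under 0.05. The standard errors (SE) given with edgeR values are the absolute log2 fold change over the square root of the test's F statistic. DESeq2 1.42.0 was an alternative. The test was checked on simulated counts for 11892 genes, 200 of them changed: it recovered 66% of 2-fold and 86% of 4-fold changes between Cd8a+ Cd8b1- and Cd8b1+ T cells, and, for 13995 genes, 11% and 79% for PFF in Trdc+ T cells. The PFF simulation assumed a dispersion of 0.05 for every gene instead of estimating it from the data. It covered only Trdc+ T cells, the type with the most cells, so recovery in the smaller types was not checked.

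The 10 factors were read out of every comparison between types, with the 3 most correlated genes each and, from each list, genes among the 3 largest changes that passed. The members and the lists (effector, residency, naive and recirculation, aryl hydrocarbon receptor targets, innate-like, inhibitory receptors, other lineage factors, dissociation) were chosen with earlier results of these data known. Gene coordinates are from GENCODE on GRCm38. A fold against a type without UMIs is a lower bound against 3 counts over the pooled libraries.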

Additional observations from a re-analysis of the deposited data

How the results depend on the processing

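Each comparison was repeated with a stricter gate, other limits on depth and mitochondrial share, doublets kept, RLE scaling, no low-count filter, DESeq2, other library units and each library left out. Over 105 values of single factors, 1205 alternatives kept the direction and the side of the threshold, 44 gained a call, 37 lost one and 51 changed direction. Their causes were not tested. For comparisons between types, the fit without the shared saline wells stands both among the other library units and among the libraries left out. It therefore enters these totals, and the counts of alternatives given above, more than once.

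Counts of genes called with a library left out ranged from 683 to 1976 (1710 with all) for Trdc+ and from 906 to 2234 (2080) for Cd8a+ Cd8b1- against Cd8b1+ T cells, from 6 to 196 (61) for Klra6/Klra7+ T cells, from 108 to 506 (506) for Cd4+ against Cd8b1+, from 11 to 409 (315) for Cd4+ Cd8a+ against Cd4+, and from 1816 to 3193 (3226) for B cells. The lowest came without the shared saline wells for Trdc+ (683), Cd8a+ Cd8b1- (906) and B cells (1816), and without PFF 1 for Klra6/Klra7+ (6), Cd4+ (108) and Cd4+ Cd8a+ T cells (11); without saline 1, Trdc+ gave 1093, Klra6/Klra7+ 16 and Cd4+ Cd8a+ 197. With no replicate block the counts were 1086 for Trdc+, 1323 for Cd8a+ Cd8b1-, 22 for Klra6/Klra7+ and 204 for Cd4+ Cd8a+ T cells, and the block changed the call of Zbtb16 in Trdc+ T cells (1.14, adjusted p = 0.246 without it) and of Zbtb16 and Ikzf2 in Cd4+ Cd8a+ T cells (adjusted p = 0.0521 and 0.0605) and no other of these 10 genes. No paired analysis was possible for PFF against saline because they share 1 replicate number. The stricter gate gave 528 for Klra6/Klra7+ and 250 for Cd4+ T cells, no filter 385 for Klra6/Klra7+ and 584 for Cd4+ Cd8a+ T cells, each well as a unit 138 for Klra6/Klra7+ T cells, and the added CD3-negative gate 205 in place of 2816.

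For PFF the 55 calls over 5 types became 22 with the stricter gate (in 4 types), 24 at 10% mitochondrial UMIs, 25 with doublets, 158 without the filter, 4 with DESeq2, 2 with the shared saline wells as a further saline library and 32 without barcodes seen in another library; calls of the 10 factors stayed at 0. The difference between types gave 2 genes, 1 with the stricter gate and 0 with the shared saline wells. Leaving out a saline library leaves no residual degree of freedom, and the Foxp3+ comparison had no unit with 15 cells.

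Changes of direction were as follows, in log2. With the stricter gate: Tbx21 in Trdc+ (0.063) and Cd8a+ Cd8b1- (0.090), Zfp683 (-0.061), Ikzf2 (0.38) and Tox (0.16) in Cd4+ against Cd8b1+ T cells, and PFF for Runx3 in Klra6/Klra7+ (0.091). In Cd4+ T cells Tox was also 0.014 with RLE, 0.016 with DESeq2, 0.10 by well and 0.087 with no replicate block, Eomes 0.38 with DESeq2 and Zfp683 -0.19 at 10% mitochondrial UMIs. By well, Tbx21 in Klra6/Klra7+ was 0.036 and Ahr in Cd4+ Cd8a+ 0.12. Leaving out each library gave, from lowest to highest, Tbx21 -0.12 to 0.022 (Cd8a+ Cd8b1-) and -0.089 to 0.075 (Klra6/Klra7+), Ahr -0.094 to 0.64 (Trdc+), -0.048 to 0.67 (Cd8a+ Cd8b1-), -1.08 to 0.94 (Cd4+) and -0.18 to 0.37 (Cd4+ Cd8a+), Tcf7 -0.70 to 0.21 (Klra6/Klra7+), Tox -0.22 to 0.14 (Cd4+) and Eomes -8.49 to 2.18 (Cd4+), -5.03 to 2.75 (CD3-negative) and -9.21 to 0.12 (B). The shared wells were the library that turned Ahr; without them Tbx21 was 0.021 and 0.029 and Tox 0.070. The added CD3-negative gate gave Tbx21 0.71, Zbtb16 0.95, Tcf7 1.76 and Lef1 2.62, and DESeq2 gave Zfp683 1.68 in the first gate. For PFF with the shared wells as saline, Ahr (0.24) and Ikzf2 (0.22) in Cd8b1+, Lef1 (-0.16) in Cd8a+ Cd8b1-, Tcf7 (-0.79) in Klra6/Klra7+, and Zbtb16 (-0.12), Tcf7 (-0.066) and Lef1 (-0.31) in Trdc+ T cells turned, as did Lef1 in Trdc+ with doublets (-0.048) and Ahr in B cells at 10% mitochondrial UMIs (-0.0015). Intervals and bounds cover counting error only, and Eomes and Zfp683 are limited by their few UMIs.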
